A study of Mus musculus with 31 samples.

Results

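The genes described here encode 4 cyclins (Ccnd1, Ccne2, Ccna2 and Ccnb1), the cyclin-dependent kinase Cdk1, the proliferation antigen Ki-67 (Mki67), DNA topoisomerase 2-alpha (Top2a), the helicase subunits Mcm2 and Mcm6, and the sliding clamp Pcna. The 10 were listed by symbol, and each was read from the probe set that the platform's annotation assigns to that symbol alone, or from the one with the highest mean signal where a gene had several. This gave 8 measured genes of 22180 in all, each with 1 probe set of its symbol alone. For Top2a, 2 further probe sets list it together with another gene and were not used. The probe sets are 17498502 for Ccnd1, 17404821 for Ccna2, 17241692 for Cdk1, 17497334 for Mki67, 17268909 for Top2a, 17468798 for Mcm2, 17226550 for Mcm6 and 17391971 for Pcna. Ccnb1 had no such probe set, and the 1 probe set listing Ccne2 lists a second gene too, so neither of the 2 is given a value.

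Liver RNA came from 31 male C57BL/6 mice aged 3 to 4 months, with 1 Affymetrix whole-transcript array per mouse and all livers taken in the morning. One history was free feeding throughout, here called 0 earlier fasts, and the other was 2 fasts of 16 h within 8 weeks, with recovery of growth after each. Each history was then split into mice killed fed and mice killed at the end of a 16 h fast. With 0 earlier fasts there were 8 mice killed fed and 8 killed fasted, and with 2 earlier fasts 8 and 7. Samples are taken as 1 animal each. The comparisons ask what a 16 h fast does to these transcripts and whether earlier fasts leave a trace on them.

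Progress through the cell cycle is driven by cyclins that bind and activate cyclin-dependent kinases in turn. D-type cyclins respond to growth signals in G1, E-type cyclins act at entry into S phase, cyclin A in S and G2, and cyclin B with Cdk1 at mitosis. The E2F transcription factors, held back by the retinoblastoma protein family, drive many replication genes, among them those of the MCM helicase. Hepatocytes of the adult liver are mostly quiescent but can re-enter the cycle after tissue loss.

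Signals are RMA values on a log2 scale, where a difference of 1 is a doubling. As a guide to dim signals, 1405 odorant, pheromone and trace amine receptor genes were taken, and the 95th percentile of all their values was 2.06. Ccnd1, Mcm6 and Pcna were above that value on 31 of 31 arrays, Mki67 on 28, Mcm2 on 24, Ccna2 on 22, Cdk1 on 9 and Top2a on 1. A filter asking for at least 7 arrays above it passed 7 of the 8 genes and not Top2a. Identical values recurred across arrays for some genes. Mcm2 was 2.2489 on 6 arrays and Top2a was 1.5586 on 4, and 1750 of all genes (7.89%) had an identical value on 4 or more arrays. Of the hepatocyte markers, 9 of 10 were measured, and their mean signal lay between 11.49 and 11.73 on every array. It was 11.52 ± 0.03 in fed and 11.66 ± 0.05 in fasted mice with 0 earlier fasts (SD, n = 8 and 8), where 3 markers were called higher and 1 lower. With 2 earlier fasts 2 were called higher and 0 lower. These calls are 44.4% and 22.2% of the 9 markers, against 12.5% and 11.6% of all genes (limma adjusted p under 0.05).

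RefSeq promoter windows, from 250 bases before to 50 after the annotated start in GRCm38.p6, matched 7 of the 10 genes. Ccnd1, Ccna2 and Ccne2 had no entry. The 150 bases before the start are shown for Mcm6 and Mki67, since both fell in fasted mice with 0 earlier fasts, and for Cdk1, which shares a motif with Mcm6 but did not pass that test. Capitals mark the E2F-like letters TTTGGCGC, TTTCCCGC, TTTGGCGG or TTTCGCGC, and CCAAT, on either strand.
Mcm6, chr1:128359706-128359855, minus strand: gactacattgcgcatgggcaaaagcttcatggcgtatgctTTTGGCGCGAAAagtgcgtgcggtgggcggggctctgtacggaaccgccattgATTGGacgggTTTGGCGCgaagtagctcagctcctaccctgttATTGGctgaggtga
Mki67, chr7:135716380-135716529, minus strand: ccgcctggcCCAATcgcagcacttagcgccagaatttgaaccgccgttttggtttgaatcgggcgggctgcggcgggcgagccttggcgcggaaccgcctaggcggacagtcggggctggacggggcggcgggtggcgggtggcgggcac
Cdk1, chr10:69352913-69353062, minus strand: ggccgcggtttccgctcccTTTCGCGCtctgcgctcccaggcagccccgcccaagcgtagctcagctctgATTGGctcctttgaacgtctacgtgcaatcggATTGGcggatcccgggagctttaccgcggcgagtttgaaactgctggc

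Mcm6 held TTTGGCGC at bases -110 to -103 and -47 to -40 from the start, and the first of these overlaps a reverse match of TTTCGCGC at -106 to -99. Cdk1 held TTTCGCGC at -131 to -124. In all, 2 of the 7 windows held at least 1 of the 4 E2F-like words, against 2.37% of all 32851 windows in the table. CCAAT was in 7 of 7 windows against 37.4% of all windows, GGGCGG in 7 of 7 against 35.7%, and TTTGAA in Cdk1, Mcm2, Mki67 and Top2a against 17.9%. These are matches of letters, not measured binding sites.

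In mice with 0 earlier fasts, the final fast lowered Ccnd1, Mki67 and Mcm6. A gene is called where its limma p, adjusted by Benjamini-Hochberg across the 22180 genes, is under 0.05. These 3 of 8 measured genes are 37.5%, and of all genes 12.5% were called in either direction, with 6.23% lower and 6.25% higher. Among the 8, 0 were called higher. The median log2 change of the 8 genes was -0.23, against -0.0036 over all genes, and 7 of 8 lay below 0. The 3 genes were 1.36- to 1.46-fold lower in fasted mice. In whole liver, fewer cells of a type and less RNA per cell cannot be told apart.

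Ccnd1, the gene of cyclin D1, carries growth signals into G1. In fed mice with 0 earlier fasts it ran from 5.09 through a median of 5.61 to 5.85, and in fasted mice from 4.38 through 5.05 to 5.31. The groups overlapped, but 6 of 8 fed mice lay above every fasted mouse and 8 of 8 fasted mice lay below the fed median. The mean went from 5.56 ± 0.27 to 5.01 ± 0.30 (SD, n = 8 and 8), 1.46-fold lower (log2 change -0.55, SE 0.16, limma adjusted p = 0.0164).

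Mki67, the gene of the nuclear antigen found in cycling cells, ran from 2.27 through 2.83 to 3.09 in fed mice and from 2.03 through 2.44 to 2.62 in fasted mice. Again 6 of 8 fed mice lay above every fasted mouse, and the other 2, fed replicates 1 and 6, lay within the fasted range. The log2 change was -0.44 (SE 0.13, limma adjusted p = 0.0201), and without fasted replicate 8 it was -0.39 with an adjusted p of 0.052, which does not pass.

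Mcm6, a subunit of the hexameric helicase that unwinds DNA at replication origins, ran from 2.67 through 3.03 to 3.55 in fed mice and from 2.37 through 2.58 to 2.83 in fasted mice. Fed replicates 1 and 8 lay within the fasted range, and the other 6 lay above it. The log2 change was -0.46 (SE 0.12, limma adjusted p = 0.0103). Mcm2, another subunit of the same helicase, gave no such difference: it ran from 1.95 through 2.30 to 2.54 in fed and from 1.92 through 2.25 to 2.54 in fasted mice, a log2 change of -0.03 with a 95% confidence interval of -0.25 to 0.20. The repeated value of 2.2489 accounts for 3 of the 8 fasted Mcm2 signals.

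Ccna2, Cdk1, Top2a and Pcna did not pass. Ccna2, the cyclin of S and G2 phase, was 2.33 ± 0.17 in fed and 2.06 ± 0.16 in fasted mice (SD, n = 8 and 8), with 8 of 8 fasted mice below the fed median (log2 change -0.27, SE 0.10, limma adjusted p = 0.0785). It passed when dim genes were left out (limma adjusted p = 0.0491), when only these 2 groups were fitted (0.0445), and in fits lacking fed replicate 6 (0.0423) or fasted replicate 1 (0.0461) of the 0-fast history, or fed replicate 5 of the 2-fast history (0.034). Cdk1, the mitotic kinase, had a log2 change of 0.09 (95% interval -0.16 to 0.34). Top2a, which untangles replicated DNA, had -0.18 (95% interval -0.37 to 0.0042). Pcna, the clamp that holds DNA polymerase on its template, had -0.10 (95% interval -0.25 to 0.04), with fed values from 6.38 to 6.73 and fasted values from 6.28 to 6.73.

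**Figure D1:**
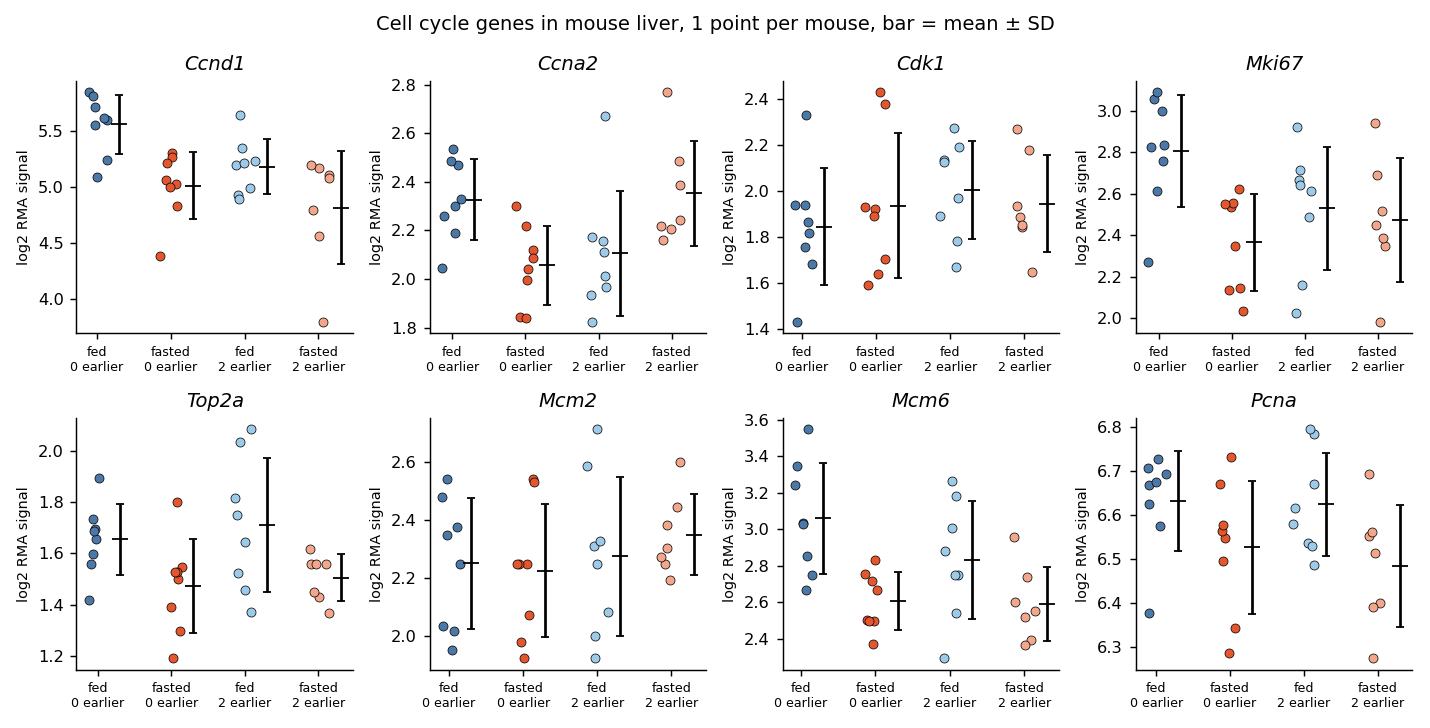
RMA log2 signal of the 8 measured genes in each of the 31 mice, 1 point per mouse, by final state and number of earlier fasts, with the group mean and SD as bars; each panel has its own axis. In mice with 0 earlier fasts, 6 of 8 fed values of Ccnd1, Mki67 and Mcm6 lie above every fasted value, and the 2 groups overlap in every panel.

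In mice with 2 earlier fasts, the same final fast gave 0 calls among the 8 genes, against 11.6% of all genes (5.52% lower and 6.06% higher), and 3 of the 8 had an unadjusted p under 0.05 (limma), against 21.7% of all genes. The median log2 change of the 8 was -0.10, against -4e-04 over all genes. These mice and those with 0 earlier fasts are separate animals with separate fed controls.

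Ccnd1 ran from 4.90 through 5.21 to 5.65 in fed mice and from 3.80 through 5.08 to 5.20 in fasted mice with 2 earlier fasts. All 7 fasted mice lay below the fed median, and fasted replicate 2 was the lowest of the 31. The log2 change was -0.37 (SE 0.16, 95% interval -0.70 to -0.03, limma adjusted p = 0.175), and without fasted replicate 2 it was -0.20 (adjusted p = 0.481). Mki67 ran from 2.02 to 2.92 in fed and from 1.98 to 2.94 in fasted mice, so that the groups covered nearly one range (log2 change -0.06, 95% interval -0.33 to 0.22, adjusted p = 0.885).

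Mcm6 ran from 2.29 through 2.82 to 3.26 in fed and from 2.37 through 2.55 to 2.96 in fasted mice, with 6 of 7 fasted mice below the fed median (log2 change -0.24, 95% interval -0.51 to 0.02, limma adjusted p = 0.275). Ccna2 lay in the other direction from its values with 0 earlier fasts. Its fed values ran from 1.82 through 2.06 to 2.67 and its fasted values from 2.16 through 2.24 to 2.77, with 7 of 7 fasted mice above the fed median (log2 change 0.25, SE 0.10, adjusted p = 0.141). Fed replicate 5, at 2.67, stood apart from the other fed mice, the next being at 2.17, and without it the log2 change was 0.33 with an adjusted p of 0.0161, which passes. Top2a had a log2 change of -0.20 and Pcna of -0.14 (adjusted p = 0.195 and 0.27), Cdk1 of -0.06 and Mcm2 of 0.08.

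Averaged over both histories, which uses the same mice again with both fed groups set against both fasted groups, Ccnd1, Mcm6 and Top2a were called lower. This is 3 of 8 genes, against 19.1% of all genes in either direction, 9.36% lower and 9.79% higher. The log2 change was -0.46 for Ccnd1 (SE 0.11, limma adjusted p = 0.00295), -0.35 for Mcm6 (SE 0.09, adjusted p = 0.00365) and -0.19 for Top2a (SE 0.07, adjusted p = 0.0349). The Top2a call rests on signals that were above the receptor gene level on 1 array, and it was lost in 10 of the 31 fits that each leave out 1 array, at adjusted p up to 0.0636. The 10 are those without fed replicate 8 or fasted replicates 5, 6 or 8 with 0 earlier fasts, and without fed replicates 1, 6 or 7 or fasted replicates 1, 3 or 5 with 2 earlier fasts. Top2a also had the identical value of 1.5586 in fasted replicates 2, 4 and 6 with 2 earlier fasts. Mki67 had -0.25 (adjusted p = 0.0634), and Pcna had -0.12 (adjusted p = 0.0981). With fed replicate 4 of the 0-fast history left out, Pcna passed (-0.14, adjusted p = 0.0446).

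**Figure D2:**
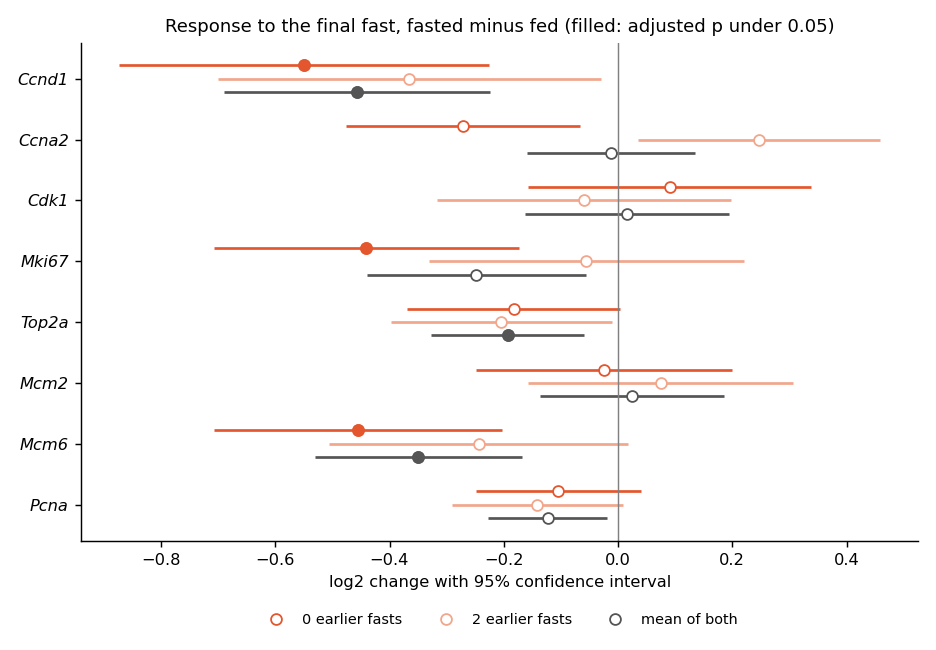
Log2 change from fed to fasted for each gene with its 95% confidence interval, in mice with 0 earlier fasts, with 2 earlier fasts, and averaged over both; filled points have a limma adjusted p under 0.05. Ccnd1, Mki67, Top2a, Mcm6 and Pcna lie below 0 in all 3 comparisons, and Ccna2 lies at -0.27 with 0 and at 0.25 with 2 earlier fasts.

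Earlier fasts were compared within each final state. Among the 8 genes 0 were called in fed mice and 0 in fasted mice, as over all genes, where 0% were called in each. At an unadjusted p under 0.05 (limma), 3 of 8 genes passed in fed mice, against 5.61% of all genes, and 1 of 8 in fasted mice, against 4.49%. The fed comparison shares its control mice with the response to the fast at 0 earlier fasts, so the values of these comparisons are not independent.

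In fed mice, Ccnd1 was lower by 0.38 on the log2 scale after 2 earlier fasts (log2 change -0.38, 95% interval -0.70 to -0.06, limma adjusted p = 0.856), with 7 of 8 mice below the median of those with 0 earlier fasts. Mki67 had a log2 change of -0.28 (95% interval -0.54 to -0.0099, adjusted p = 0.888) and Ccna2 of -0.22 (95% interval -0.43 to -0.02, adjusted p = 0.874), and in both 7 of 8 mice lay below that median. Mcm6 had -0.23 (adjusted p = 0.90), and the other 4 genes lay between -0.0067 for Pcna and 0.16 for Cdk1. In fasted mice, Ccna2 was the gene with an unadjusted p under 0.05 (log2 change 0.30, 95% interval 0.08 to 0.51, adjusted p = 1.0), and 7 of 7 mice with 2 earlier fasts lay above the median of those with 0. The other 7 genes lay between -0.19 for Ccnd1 and 0.12 for Mcm2. Averaged over both final states 0 of 8 were called, against 0% of all genes, and Ccnd1 had the largest change (-0.29, 95% interval -0.52 to -0.05, adjusted p = 0.925).

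The interaction of history and final fast, which is the response with 2 minus the response with 0 earlier fasts, was called for 0 of 8 genes and for 0% of all genes. At an unadjusted p under 0.05, 2 of the 8 passed, against 4.61% of all genes. Ccna2 had the largest interaction of the 8, at 0.52 (SE 0.15, 95% interval 0.22 to 0.81), and its unadjusted limma p of 0.00112 was the 26th smallest of 22180 (adjusted p = 0.928). With fed replicate 5 of the 2-fast history left out, it was 0.60 with an adjusted p of 0.266, and it passed in 0 of the 31 fits that leave out 1 array. For Mki67 the interaction was 0.39 (95% interval 0.0014 to 0.77, adjusted p = 1.0), for Mcm6 0.21 (-0.15 to 0.57) and for Ccnd1 0.18 (-0.28 to 0.65). So the responses of Ccnd1, Mki67 and Mcm6, which passed with 0 earlier fasts and not with 2, were not shown to differ between the histories.

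**Figure D3:**
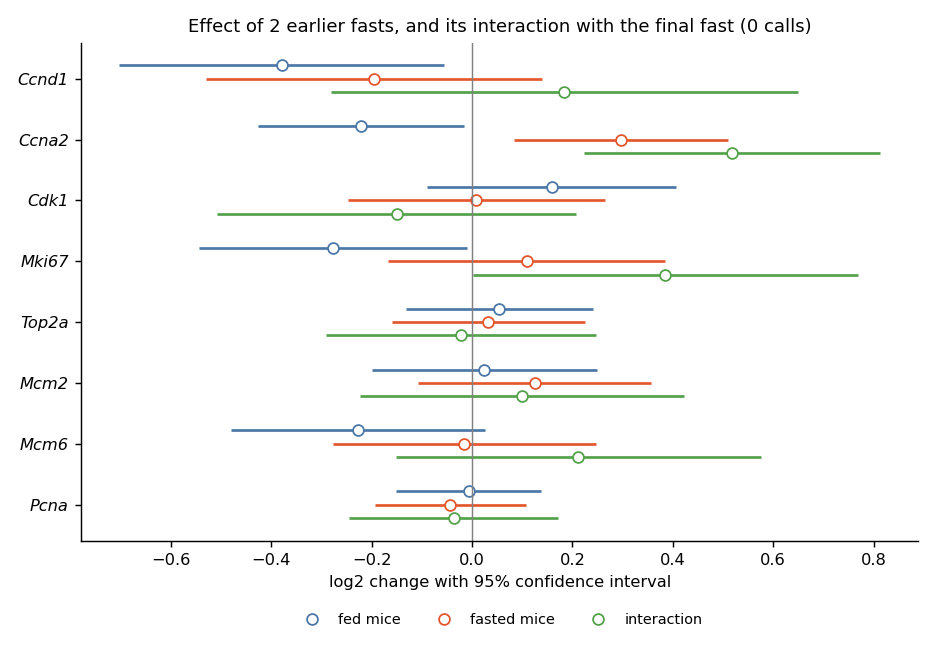
Log2 effect of 2 earlier fasts in fed mice and in fasted mice, and the interaction of history with the final fast, for each gene with its 95% confidence interval. No point passes the adjusted threshold, and the Ccna2 interval of the interaction, 0.22 to 0.81, lies farthest from 0.

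Mice of 1 group also differed from each other, so the deviations of each gene from its group mean were correlated over the 31 arrays. Of the 28 pairs of genes, 20 had a Pearson's r above 0, with a median of 0.11 and a range of -0.36 to 0.638. After adjustment over the 28 pairs, 1 pair passed. Mki67 and Mcm6 deviated together (r = 0.638, permutation p = 0.00034, adjusted p = 0.00952; Spearman's rho = 0.625, permutation p = 0.00048, adjusted p = 0.0134; 1e+05 permutations within groups, 2-sided). Without the 2 arrays farthest from the median Mki67 signal, r was 0.613. Within the groups r was 0.597 in fed and 0.762 in fasted mice with 0 earlier fasts, and 0.625 in fed and 0.721 in fasted mice with 2 earlier fasts. The next highest pair, Cdk1 and Pcna, had r = 0.434 (permutation p = 0.025, adjusted p = 0.324), with values from -0.291 to 0.782 within groups. Mcm2 and Mcm6, subunits of 1 helicase, had r = 0.354 (permutation p = 0.0809), and Mki67 and Top2a had r = 0.192 (permutation p = 0.336). The pairs with the lowest r joined Ccna2 with Mcm2 (-0.36) and with Pcna (-0.336).

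**Figure D4:**
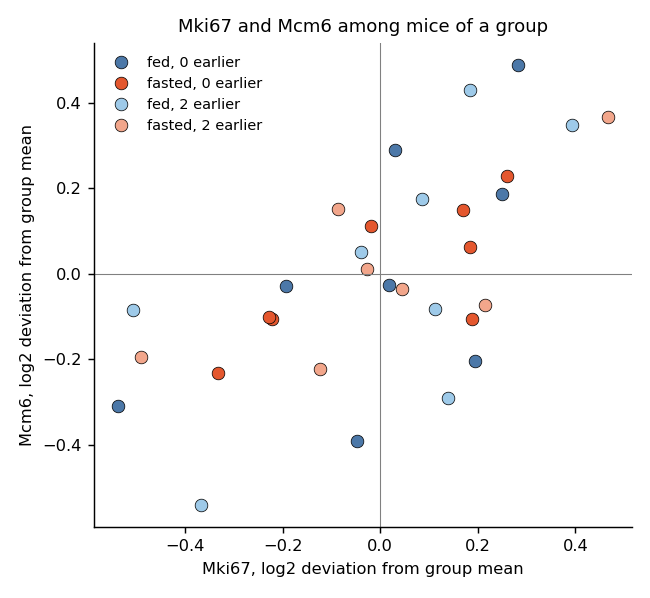
Deviation of Mcm6 from its group mean against that of Mki67, both on the log2 scale, with 1 point per mouse for the 31 mice and colours for the 4 groups. The points slope upward (r = 0.638 over all mice, and 0.597 to 0.762 within the 4 groups), with single mice in each group that lie high in one gene and low in the other.

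The genes whose deviations followed each gene most closely over the 31 arrays are given as a description, each being the highest of all named genes searched. For Ccnd1 they were Ifi27 (r = 0.764), Med24 (0.682) and Fubp3 (0.681). For Mcm6 they were Bhlha15 (0.753), Dusp22 (0.664) and Mki67 (0.638), and for Mki67 they were Gabrb1 (0.708), Clec4a2 (0.647) and Mcm6 (0.638). For Ccna2 they were Usp30 (0.676), Reep1 (0.658) and AU016765 (0.634), for Cdk1 Cops9 (0.601), Phyhip (0.577) and Ubd (0.576), and for Top2a Wfdc6a (0.685), Crygd (0.682) and Btbd11 (0.655). For Mcm2 they were Arfgap2 (0.693), Mael (0.643) and Ap3s2 (0.643), and for Pcna Rps16 (0.673), Trh (0.611) and Rdh12 (0.61). Outside the pair Mki67 and Mcm6, none of these top 3 belongs to the 10 genes or to the cell cycle lists below.

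Other genes of the cycle were taken as lists. Of 16 measured genes of G1/S control and E2F, the fast with 0 earlier fasts raised 3 and lowered 2 (31.2%), and with 2 earlier fasts it raised 2 and lowered 1 (18.8%), against 12.5% and 11.6% of all genes. Of the other D-type cyclins, Ccnd2 fell, like Ccnd1, from 5.00 ± 0.22 to 4.44 ± 0.32 (log2 change -0.55, limma adjusted p = 0.00195) with 0 earlier fasts and had a change of -0.37 (adjusted p = 0.0677) with 2. Ccnd3 rose in both, from 4.37 ± 0.27 to 5.20 ± 0.22 with 0 earlier fasts (log2 change 0.83, adjusted p = 1.51e-07) and by 0.52 with 2 (adjusted p = 0.000524). Cdk6, a kinase partner of D-type cyclins, rose by 0.37 and 0.27 (adjusted p = 0.00121 and 0.0306). Rbl1, the retinoblastoma relative p107, fell by 0.48 and 0.34 (adjusted p = 0.00153 and 0.0455). With only the groups compared in the fit, the calls of Cdk6 and Rbl1 with 2 earlier fasts were lost (adjusted p = 0.113 and 0.0548), and that of Rbl1 also with an intensity trend (0.0641). They held in 25 and 19 of the 31 fits that leave out 1 array.

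The inhibitors of cyclin-dependent kinases were led by Cdkn1a, the gene of p21. It went from 4.07 ± 0.60 to 6.90 ± 1.13 with 0 earlier fasts (log2 change 2.84, limma adjusted p = 9.03e-08) and from 3.98 ± 0.29 to 7.29 ± 0.67 with 2 (log2 change 3.31, adjusted p = 9.46e-09). Of the other 6 inhibitors, Cdkn1b, the gene of p27, fell by 0.30 with 0 earlier fasts (adjusted p = 0.013), and 0 were called with 2. With Cdkn1a counted, 28.6% and 14.3% of the 7 inhibitors were called, against 12.5% and 11.6% of all genes.

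Of 34 measured genes of DNA replication besides the 10, 0 rose and 3 fell with 0 earlier fasts (8.82%), and 0 rose and 6 fell with 2 earlier fasts (17.6%), against 12.5% and 11.6% of all genes called in either direction. Their median log2 change was -0.12 and -0.19, with 29 and 26 of 34 below 0. Pola1, the catalytic subunit of DNA polymerase alpha, fell in both, by 0.57 (limma adjusted p = 7.5e-05) and by 0.62 (adjusted p = 3.9e-05). Tk1, the thymidine kinase of S phase, fell by 0.62 with 0 earlier fasts (adjusted p = 0.0185, and 0.0554 without fasted replicate 5) and had a change of -0.51 with 2 (adjusted p = 0.084). Rpa1, which coats single-stranded DNA, fell by 0.29 and 0.36 (adjusted p = 0.0127 and 0.00228). With the mean of its probe sets it had a change of -0.12 (adjusted p = 0.256) with 0 earlier fasts. No alternative was run for Rpa1 with 2 earlier fasts. With 2 earlier fasts the clamp loader genes Rfc5 and Rfc3 fell by 0.50 and 0.44 (adjusted p = 0.00324 and 0.0178), and the flap endonuclease gene Fen1 by 0.39 (adjusted p = 0.0393). With only the groups compared in the fit, the calls of Rfc3 and Fen1 were lost (adjusted p = 0.0572 and 0.0824). The Fen1 call held in 22 of the 31 fits that leave out 1 array. That of Rfc3 was lost without fasted replicate 2 or 7 with 2 earlier fasts (adjusted p up to 0.0668).

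Averaged over both histories, 11 of the 34 replication genes fell and 1 rose (35.3%, against 19.1% of all genes). Those that fell were Pola1, Tk1, Rpa3, Mcm3, Rfc5, Fen1, Rpa1, Prim1, Rfc3, Mcm10 and Pole, and Gins4 rose. These names beyond the ones above were given because the count was small, after their values were seen. No alternative was run for the 34 genes in this comparison, and the Mcm10 call lay close to the threshold (limma adjusted p = 0.0474). The genes that fell include parts of the helicase, primase, polymerase, clamp loader and single-strand binding steps of replication. Not every gene of a step was called: Mcm4, Mcm5 and Mcm7 had log2 changes of -0.20, -0.20 and 0.05 (limma adjusted p = 0.301, 0.178 and 0.733).

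Of 35 measured genes of G2 and mitosis, 2 rose and 0 fell with 0 earlier fasts (5.71%), and 2 rose and 1 fell with 2 earlier fasts (8.57%), against 12.5% and 11.6% of all genes. Both risers were the same in the 2 comparisons. Pttg1, the gene of securin, rose by 0.31 and 0.34 (limma adjusted p = 0.0154 and 0.00956), and the mitotic kinase gene Nek2 by 0.42 and 0.36 (adjusted p = 0.0123 and 0.0485). The Nek2 call with 2 earlier fasts held in 14 of the 31 fits that leave out 1 array and was lost with an intensity trend (adjusted p = 0.0639). The gene that fell was Cenpa, of the centromeric histone (-0.28, adjusted p = 0.045, called in 21 of those 31 fits). That call was lost with only the groups compared (0.0578) and with an intensity trend (0.0815). The list's median log2 change was -0.07 and -0.04. Its mean signal lay between 2.02 and 2.21 on all arrays, near the receptor gene level of 2.06. This limits what the few calls and small medians can show about these genes. Of 10 measured growth factor and receptor genes, Egfr, the receptor of epidermal growth factor, fell by 0.99 with 0 earlier fasts (adjusted p = 0.000326) and had a change of -0.47 with 2 (adjusted p = 0.145), and no other was called in either. The interaction for Egfr was 0.52 (adjusted p = 1.0).

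**Figure D5:**
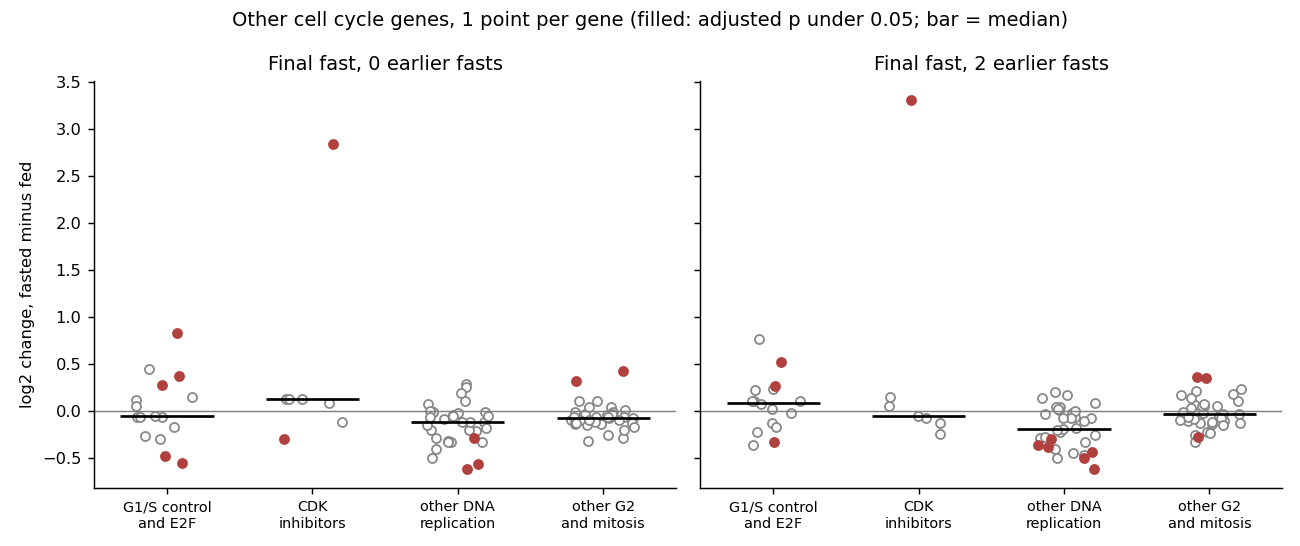
Log2 change from fed to fasted of other cell cycle genes, 1 point per gene, by list, with 0 (left) and 2 (right) earlier fasts; filled points have a limma adjusted p under 0.05 and bars are list medians. Cdkn1a stands apart at 2.84 and 3.31, and the replication genes that passed lie below 0.

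Some markers of Kupffer, stellate and sinusoidal endothelial cells were called in the response to the fast. The Kupffer cell list, of liver macrophages, had 12 markers measured, of which 7 were lower and 0 higher in fasted mice with 0 earlier fasts, and 3 and 0 with 2. Of all genes, 6.23% and 5.52% were called lower in these comparisons, and 12.5% and 11.6% in either direction. The mean Kupffer marker signal ran from 5.11 to 6.31 in fed and from 4.72 to 5.77 in fasted mice with 0 earlier fasts, and from 4.83 to 5.98 and from 4.73 to 5.58 with 2. The 3 calls with 2 earlier fasts, Adgre1, Clec4f and Csf1r, held in 27, 27 and 21 of the 31 fits that leave out 1 array. Of 12 stellate cell markers, 3 fell and 1 rose with 0 earlier fasts (33.3%) and 4 fell with 2 (33.3%). Their mean signals with 0 earlier fasts were 5.05 to 5.42 fed and 4.85 to 5.22 fasted. The call of the riser, Ecm1, was lost with cyclic loess (limma adjusted p = 0.058) and with only the groups compared (0.0758). It held in 21 of the 31 fits that leave out 1 array, as did the call of Ngfr with 2 earlier fasts. Among 10 markers of sinusoidal endothelium, 7 lay below 0 in each response (median log2 changes -0.12 and -0.06). Lyve1 and Bmp2 rose with 0 earlier fasts (20%) and Lyve1 with 2 (10%), against 12.5% and 11.6% of all genes. The Bmp2 call was lost with only the groups compared (limma adjusted p = 0.0614) and held in 22 of the 31 fits that leave out 1 array. Of 10 measured lymphocyte, 9 neutrophil and monocyte, 5 cholangiocyte and 3 erythroid markers 0 were called in either response, and the mean lymphocyte signal lay between 1.80 and 2.26 on all arrays. The part of these cells in the falls of Ccnd1, Mki67 and Mcm6 was not tested.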

How the data were processed

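Total RNA (100 ng per sample) of mouse liver was biotin labelled and hybridised to 31 arrays, per the labels' protocols. The deposited values are log2 signals that the authors made with RMA, per the submitters' processing notes. No version of RMA is named. The values ran from -0.0139 to 13.1, with array medians of 2.01 to 2.07. Detection calls were not used here, and the number of arrays limits the precision.

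The platform's annotation gave 1 symbol to 23521 of 41345 probe sets, several to 1814 and none to 16010. For a gene with several probe sets the one with the highest mean was used, giving 22180 genes. A single limma model (version 3.58.1, R 4.3.3) held a mean for each of the 4 groups and gave 7 contrasts, 2-sided, with Benjamini-Hochberg adjustment over all genes. Intervals are 95% intervals of that fit. The fit was tested on simulated data. Promoter windows were searched in Python 3.11.15 and figures drawn with matplotlib 3.10.9.

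The 10 genes, the gene lists and the marker lists were chosen with earlier results of these data known. The text names the 10 genes, up to 4 called genes of each list with the largest change in a comparison, and the 3 genes most correlated with each. Alternatives were a filter on dim genes, the mean of probe sets, cyclic loess, an intensity trend with robust variances, array weights, only the groups compared, the replicate number as a block, and leaving out each array. Same-numbered mice did not deviate together: r over all genes lay between -0.064 and 0.116, with 3 of 45 pairs above 0.1, so the numbers were not taken as pairs.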

Additional observations from a re-analysis of the deposited data

Results flagged for a closer look

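Among 32 combinations of a gene and a group, 2 held a mouse apart from the rest of its group by Dixon's test at the 95% level, and chance alone marks about 1 in 20. Ccna2 in fed mice with 2 earlier fasts was highest in replicate 5, at 2.67, with the next mouse at 2.17. That gap was 0.588 of the group's range, above the critical 0.526. Pcna in fed mice with 0 earlier fasts was lowest in replicate 4, at 6.38, with the next mouse at 6.58 (gap 0.564 of the range).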

How the results depend on the processing

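The log2 changes called in the 8 genes kept their direction under every alternative run. With 0 earlier fasts 3 genes were called, 4 without dim genes or with only the groups compared, and 2 to 4 when 1 array was left out. With 2 earlier fasts 0 were called, and 0 to 1 when 1 array was left out, the 1 being Ccna2. Averaged over both histories 3 were called, and 2 to 4 when 1 array was left out. With the replicate block 4 were called there, Mki67 joining at a log2 change of -0.27 (limma adjusted p = 0.0458), as it did without dim genes (adjusted p = 0.0409) and in 5 of the 31 fits that leave out 1 array. The block gave the main count in the other 6 comparisons. Among the list and marker genes named, it ended the calls of Rbl1 (limma adjusted p = 0.0618) and Cenpa (0.0509) with 2 earlier fasts and of Bmp2 (0.0633) with 0. For the history and interaction comparisons 0 of the 8 genes were called under all settings. The median r of the 28 pairs was 0.11 to 0.115. Counts over all genes ranged from 2439 to 3052 with 0 and from 2277 to 2922 with 2 earlier fasts. Signals near those of receptor genes (Top2a, Cdk1, Ccna2, Mcm2) limit what can be read from them. Mki67 also came near that level of 2.06. It was 2.03 in fasted replicate 8 with 0 earlier fasts, the mouse without which its call in that history was lost.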

Other observations

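Averaged over both histories, 7 of 16 genes of G1/S control and E2F were called by limma, 4 higher and 3 lower, against 19.1% of all genes called, 9.79% higher and 9.36% lower. The following were picked after their values were seen. E2f8, an atypical repressing E2F, had a log2 change of 0.60 (adjusted p = 0.0404), and E2f1, an activating E2F, fell by 0.20 (adjusted p = 0.0479). The other E2F genes of the list were not called. E2f2 had a log2 change of -0.24, E2f3 of 0.17 and E2f7 of -0.04 (limma adjusted p = 0.0667, 0.199 and 0.75). Cdk4, a partner of D-type cyclins, rose by 0.25 (adjusted p = 0.00091). Of the mitotic genes, Smc2, a condensin subunit, fell by 0.31 (adjusted p = 0.00607) and the spindle checkpoint gene Mad2l1 by 0.28 (adjusted p = 0.0137). No alternative was run in this comparison for E2f8, E2f1, Cdk4, Smc2 or Mad2l1.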
